A study of Mus musculus with 16 samples.

Results

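Amino acid transporters of 7 solute carrier families (Slc1, Slc3, Slc6, Slc7, Slc36, Slc38 and Slc43) were followed in the colorectum and liver of mice that drank N-glycolylneuraminic acid (Neu5Gc), a sialic acid. Members were taken by gene symbol alone, as every gene named with one of these family numbers, the letter a and a number. The rule found 61 of the 36118 gene IDs in the tables, namely 7 of family 1, 2 of family 3, 19 of family 6, 15 of family 7, 4 of family 36, 11 of family 38 and 3 of family 43. Total RNA for bulk RNA-seq came from male APCMin/+ mice aged 8 weeks, whose truncating Apc mutation gives intestinal adenomas. The high group, labelled treatment, drank water with 0.2535 mg/ml Neu5Gc for 14 days, and the low group, labelled control, drank 0.0127 mg/ml for the same time, so every group carried the mutation and received some Neu5Gc. The sample labels give 6 high and 4 low colorectum libraries and 3 high and 3 low liver libraries. The text on the series' design gives the mouse numbers the other way round (6 control and 4 treated), and the groups here follow the sample labels. The labels number the libraries but do not say whether a colorectum sample held adenoma, or which liver and colorectum came from 1 mouse.

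Most solute carriers of these families move amino acids across cell membranes, and those of family 6 also neurotransmitters, osmolytes and creatine. Transport is driven by sodium, protons or the exchange of another amino acid. Some work as pairs, in which a heavy chain of family 3 carries a light chain of family 7 to the membrane. Epithelia of the small intestine and of the kidney tubule take up amino acids from the lumen through many of the same carriers, whereas several carriers of families 36 and 38 sit on lysosomes and take part in amino acid sensing.

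The labelled tissues showed their defining markers. Over 8 hepatocyte markers the summed level, in TPM (a level scaled for transcript length and for the size of the library), was 52892 to 69498 in the high and 62589 to 68067 in the low liver libraries, and 6 of 6 epithelial markers reached at least 1 TPM in every colorectum library. Low colorectum library 4 stood apart. It held 19360 TPM over 16 kidney tubule markers, all 16 at 1 TPM or more, against 2.92 to 72.4 TPM in the high and 4.09 to 36.2 TPM in the other 3 low libraries. In 6 of those 9 libraries, between 1 and 5 markers were listed at 0, and Aqp2 or Pax2 was among them in 5. The same library held 1332 TPM over the 8 hepatocyte markers, against 130 to 197 TPM in the high and 152 to 224 TPM in the other low libraries, with all 8 at 1 TPM or more in every library. Low colorectum library 3 held 5731 TPM over 12 pancreatic acinar markers, against 406 to 693 TPM in the high and 137 to 155 TPM in the other low libraries. For members whose call, sign or size turned on low library 4, the value without it is given as well. The same holds for the lists counted below whose calls turned on it. Depth, as the sum of estimated counts divided by 1e6, ran over 46.1 to 70.7 for high and 48.3 to 73.9 for low colorectum libraries. For the liver it ran over 68.8 to 86.1 for high and 47.5 to 55.9 for low libraries, without overlap. In bulk tissue, fewer cells of a type and less RNA per cell cannot be told apart.

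The leading carriers differed between the tissues, while most of those detected were shared. By the median over all libraries of a tissue, 33 members reached 1 TPM in the colorectum and 26 in the liver, 21 of them in both, 12 in the colorectum alone and 5 in the liver alone (Slc1a2, Slc6a13, Slc7a2, Slc38a3 and Slc38a4), while 23 stayed below 1 TPM in both. The highest median levels in the colorectum were those of Slc6a8, the creatine transporter, at 168 TPM, Slc6a14, a broad neutral and cationic amino acid carrier, at 163 TPM, and Slc1a5, a glutamine exchanger, at 134 TPM. Their order depended on the group. The medians of the high and low libraries were 203 and 77.1 TPM for Slc6a8, 157 and 176 TPM for Slc6a14, and 134 and 135 TPM for Slc1a5. In the liver these 3 had medians of 2.78 TPM, 0 TPM and 2.91 TPM. The liver was led by the glutamine carrier Slc38a3 at 634 TPM, Slc38a4, which carries neutral and cationic amino acids, at 385 TPM, and the GABA and taurine carrier Slc6a13 at 130 TPM. The same 3 had colorectum medians of 0.696, 0.508 and 0.347 TPM. Only levels are described here, because the tissues were deposited as separate tables.

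**Figure D1:**
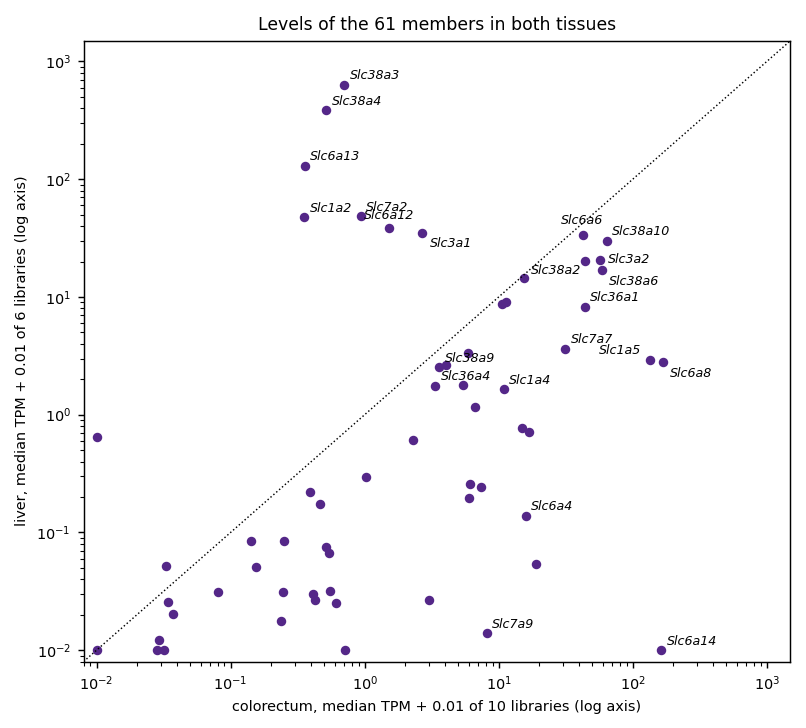
Median TPM of the 61 members in the colorectum (x axis, 10 libraries) and the liver (y axis, 6 libraries), both on log axes after adding 0.01, 1 point per member, with equality as a dotted line. Slc38a3, Slc38a4 and Slc6a13 lie far above the line, and Slc6a14, Slc1a5 and Slc6a8 far below it.

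In the colorectum, 3 members rose and 10 fell with high Neu5Gc (edgeR quasi-likelihood test, Benjamini-Hochberg adjusted p under 0.05 over all genes). Those 13 were 24.1% of the 54 members that passed the filter on low counts, where 15.5% of all 17961 genes tested were called (7.29% higher and 8.21% lower). The rises were those of the serotonin transporter Slc6a4, the proton-coupled carrier Slc36a1 and the creatine transporter Slc6a8. Among the falls were those of the cystine transporter heavy chain Slc3a1, the neutral amino acid exchanger Slc1a4, the taurine transporter Slc6a6, the proline and tryptophan carrier Slc36a4 and the lysosomal arginine sensor Slc38a9. The median log2 change (high minus low) was -0.36 over the 54 members and -0.015 over all genes. Without low library 4 it was -0.21 over 55 members and -0.005 over all genes, with 4 members higher and 10 lower, where 12.1% of all genes were called (5.55% higher and 6.55% lower). The 7 members that did not pass the filter were Slc6a2, Slc6a3, Slc6a16, Slc6a18, Slc6a21, Slc7a12 and Slc36a3. TPM of the high and low groups did not overlap for 9 members, 3 above and 6 below, where 11.4% of all genes tested had groups that did not overlap (4.99% above and 6.43% below).

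**Figure D2:**
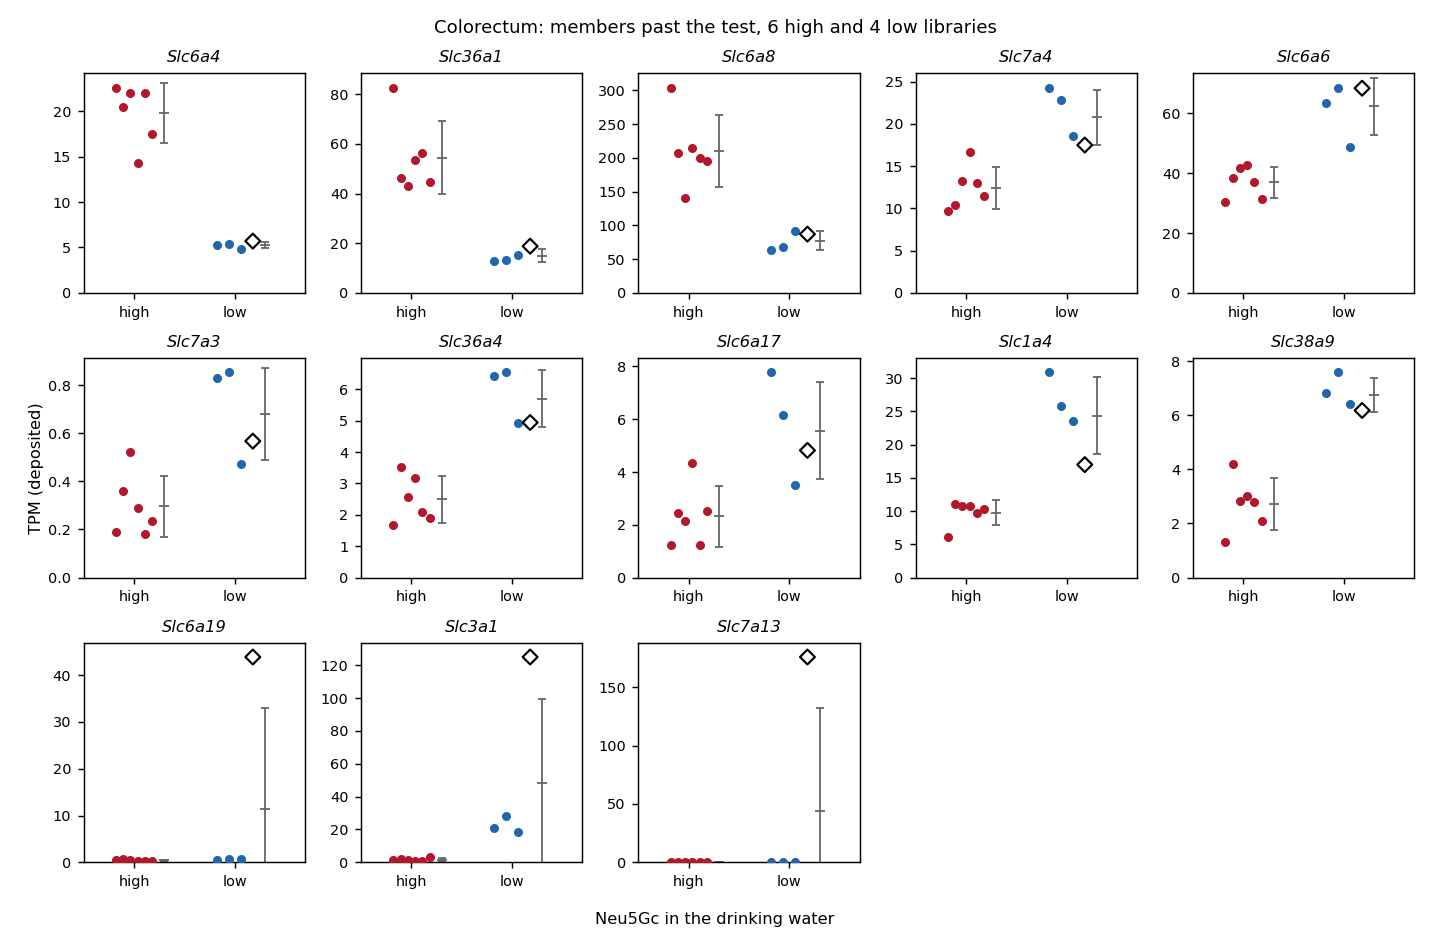
TPM (y axes, linear, each from 0) of the 13 called members in the 6 high (left, red) and 4 low (right, blue) colorectum libraries, with low library 4 as an open diamond and grey bars for mean and SD, cut at 0. For 9 of the 13 members the 2 groups do not overlap, while Slc6a19 and Slc7a13 are above 1 TPM in low library 4 alone.

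Among the carriers of transmitters, osmolytes and creatine in family 6, 2 of the 9 tested rose and 1 fell. Slc6a4, which takes up serotonin and so ends its signal in the gut mucosa, had 14.3, 21.2 and 22.6 TPM as lowest, median and highest of the high libraries, against 5.28, 5.37, 4.83 and 5.7 TPM in low libraries 1 to 4. Every high library lay above every low one, and the low libraries varied little (SD 0.357 TPM). The log2 change was 2.0 (SE 0.17, adjusted p = 1.1e-04), a 3.99-fold rise, and 2.05 without low library 4.

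Slc6a8, which carries creatine, had 140 TPM as the lowest, 203 TPM as the median and 304 TPM as the highest value of the high libraries, against 64.2, 67.3, 91.5 and 87 TPM in low libraries 1 to 4. The lowest high library again lay above the highest low library. Its log2 change was 1.52 (SE 0.25, adjusted p = 0.00265), and 1.60 without low library 4. The taurine transporter Slc6a6 went the other way, with 30.2, 37.7 and 42.7 TPM as lowest, median and highest of the high libraries, against 63.6, 68.6, 48.6 and 68.4 TPM in low libraries 1 to 4. All 6 high libraries lay below all 4 low ones, and the log2 change was -0.67 (SE 0.11, adjusted p = 0.00343). The 3 calls of Slc6a4, Slc6a8 and Slc6a6 held whichever single library was left out. Of the glycine, GABA and betaine carriers of this group, Slc6a9 changed by -0.18 (SE 0.15) and Slc6a12 by 0.29 (SE 0.50), neither past the test. Without low libraries 3 and 4, Slc6a12 had a log2 change of 1.68 (SE 0.44, adjusted p = 0.0339).

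The proton-coupled family 36 held a rise and a fall. Slc36a1, which brings small amino acids in across the brush border and out of lysosomes, had 43.2, 49.8 and 82.7 TPM as lowest, median and highest of the high libraries, against 12.7, 13.4, 15.1 and 18.8 TPM in low libraries 1 to 4. The groups did not overlap, and high library 1 stood above the other 5 high libraries. The log2 change was 1.95 (SE 0.25, adjusted p = 7.4e-04), a 3.85-fold rise, and 2.10 without low library 4. Slc36a4, a high-affinity carrier of proline and tryptophan, had 1.66, 2.33 and 3.53 TPM as lowest, median and highest of the high libraries, against 6.42, 6.54, 4.91 and 4.94 TPM in low libraries 1 to 4. Here too the groups did not overlap, with a log2 change of -1.13 (SE 0.16, adjusted p = 0.0011) and of -1.17 without low library 4. Slc36a2 changed by 0.22 (SE 0.33), short of the test.

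In the sodium-coupled family 38, Slc38a9 fell, and the other 10 members did not pass the test. Slc38a9, a lysosomal carrier that senses arginine for the growth kinase complex mTORC1, had 1.31, 2.81 and 4.19 TPM as lowest, median and highest of the high libraries, against 6.82, 7.59, 6.4 and 6.18 TPM in low libraries 1 to 4. The highest high library was below the lowest low library. The log2 change was -1.26 (SE 0.21, adjusted p = 0.00286), and -1.28 without low library 4. More abundant members of the family did not pass the test, with mean levels of 57.4 ± 8.36 TPM in high and 69.7 ± 7.49 TPM in low libraries for Slc38a10, and of 43.5 ± 4.75 TPM in high and 45.8 ± 8 TPM in low libraries for the glutamine carrier Slc38a2 (SD, n = 6 and 4). Slc38a6 averaged 61.5 ± 16 TPM in high and 54.7 ± 6.13 TPM in low libraries. The log2 changes were -0.21 (SE 0.13) for Slc38a10, 0.01 (SE 0.10) for Slc38a2 and 0.24 (SE 0.16) for Slc38a6. Without low library 4 the change of Slc38a2 was -0.08 (SE 0.10), so that its sign turned.

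In family 1, 1 of the 7 members passed the test. Slc1a4, an exchanger of alanine, serine and cysteine, had 6.09, 10.5 and 11 TPM as lowest, median and highest of the high libraries, against 30.9, 25.9, 23.6 and 17 TPM in low libraries 1 to 4. Low library 4 was the lowest of the low group and still lay above all high libraries. The log2 change was -1.23 (SE 0.16, adjusted p = 7.6e-04), and -1.36 without low library 4. Its relative Slc1a5, the glutamine exchanger, averaged 140 ± 12.9 TPM in high and 136 ± 26.8 TPM in low libraries (log2 change 0.14, SE 0.11, adjusted p = 0.393). The glutamate carrier Slc1a1 had 18.8, 20.2 and 25.1 TPM as lowest, median and highest of the high libraries, against 7.93, 6.92 and 13.2 TPM in low libraries 1 to 3 and 34.4 TPM in low library 4. With all libraries its log2 change of 0.46 (SE 0.44, adjusted p = 0.494) did not pass the test, and without low library 4 it was 1.24 (SE 0.24, adjusted p = 0.00817).

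Both heavy chains were measured, and only Slc3a1 was called. The difference between the heavy chains in response was not tested. Slc3a1, which pairs with light chains that take up cystine and cationic amino acids, had 0.682, 1.45 and 3.5 TPM as lowest, median and highest of the high libraries, against 20.8, 28.1 and 18.4 TPM in low libraries 1 to 3 and 125 TPM in low library 4. The groups did not overlap, whether or not low library 4 was counted. With all libraries the log2 change was -4.81 (SE 0.72, adjusted p = 0.00279), and without low library 4 it was -3.64 (SE 0.44, adjusted p = 9.4e-04). Slc3a2, the heavy chain of most other light chains, had 49.6, 57 and 70.6 TPM as lowest, median and highest of the high libraries, against 56.5, 57.9, 38.7 and 84.7 TPM in low libraries 1 to 4. Its groups overlapped, and the log2 change was 0.06 (SE 0.20, adjusted p = 0.86). Without low library 4, the highest of all 10 libraries, the change of Slc3a2 was 0.31 (SE 0.15, adjusted p = 0.183).

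The light chain that pairs with Slc3a1 in cystine uptake did not follow it past the test. Slc7a9 had 4.98, 7.01 and 14 TPM as lowest, median and highest of the high libraries, against 7.63, 14.8 and 3.49 TPM in low libraries 1 to 3 and 53.5 TPM in low library 4. Its log2 change was -1.18 (SE 0.69, adjusted p = 0.264) with all libraries and 0.11 (SE 0.47) without low library 4, so that its sign turned. The difference between Slc3a1 and Slc7a9 in response was not tested. Light chains of Slc3a2 showed no call either, with log2 changes of -0.22 (SE 0.25) for the leucine carrier Slc7a5, -0.54 (SE 0.24, and -0.19 without low library 4) for Slc7a7, which exports cationic amino acids, and 0.63 (SE 0.47) for the cystine and glutamate exchanger Slc7a11. Slc7a13, another light chain that pairs with Slc3a1, is taken up with low library 4.

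Of the 5 members in the cationic group of family 7, 2 fell. Slc7a4, whose substrate is not settled, had 9.74, 12.3 and 16.7 TPM as lowest, median and highest of the high libraries, against 24.3, 22.8, 18.6 and 17.5 TPM in low libraries 1 to 4. Those groups did not overlap, though high library 4 and low library 4 were close, and the log2 change was -0.65 (SE 0.15, adjusted p = 0.014). Slc7a3, an arginine and lysine carrier, was rare, with 0.181, 0.262 and 0.52 TPM as lowest, median and highest of the high libraries, against 0.83, 0.853, 0.47 and 0.567 TPM in low libraries 1 to 4. The groups overlapped, and the log2 change of -1.12 (SE 0.30, adjusted p = 0.0283) lost its call when any of low libraries 1 and 2 or high libraries 1, 5 and 6 was left out (adjusted p up to 0.0752). The arginine carrier Slc7a1 changed by -0.18 (SE 0.19).

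Among the 5 tested amino acid carriers of family 6, 2 were called, neither in every fit that left out 1 library. Slc6a17, a vesicular carrier of neutral amino acids known from neurons, had 1.22, 2.3 and 4.36 TPM as lowest, median and highest of the high libraries, against 7.78, 6.16, 3.51 and 4.82 TPM in low libraries 1 to 4. The groups overlapped through low library 3, and the log2 change of -1.18 (SE 0.31, adjusted p = 0.028) lost its call without low library 1 or 2 or without high library 1, 3 or 5 (adjusted p up to 0.0756). Over 8 enteric neuron and glia markers the summed level was 26.9 to 53.8 TPM in the high and 34.3 to 71.4 TPM in the low libraries, none of the 8 past the test, with 7 or 8 of them at 1 TPM or more in each library, and their part in the fall of Slc6a17 was not tested. Slc6a14, one of the most abundant members, averaged 166 ± 42.6 TPM in high and 179 ± 52 TPM in low libraries (log2 change -0.03, SE 0.23, adjusted p = 0.941). Slc6a7, the proline carrier, had a log2 change of 0.89 (SE 0.28) and missed the threshold with an adjusted p of 0.0531.

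None of the 3 members of family 43, of which Slc43a1 and Slc43a2 carry large neutral amino acids, passed the edgeR test. Slc43a2 had 3.82, 5.51 and 6.72 TPM as lowest, median and highest of the high libraries, against 10.4, 10.2 and 4.57 TPM in low libraries 1 to 3 and 30.3 TPM in low library 4. Its groups overlapped through low library 3, and its log2 change was -1.30 (SE 0.41, adjusted p = 0.0578). Without low library 4 it was -0.52 (adjusted p = 0.128), and without low libraries 3 and 4 it was -0.79 (SE 0.14, adjusted p = 0.00456). The log2 changes of Slc43a1 and Slc43a3 were -0.44 (SE 0.20) and 0.02 (SE 0.10). In the edgeR test, 2 of the 3 members, Slc43a1 and Slc43a2, had an unadjusted p under 0.05 (0.049 and 0.00999). The share of all genes at that unadjusted threshold was not taken, so this count says nothing about the family.

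Low library 4 had the highest colorectum sums of kidney and hepatocyte markers. In it, 11 members were at over 3 times their level in any other low library. These were Slc3a1, Slc6a13, Slc6a15, Slc6a18, Slc6a19, Slc7a8, Slc7a9, Slc7a12, Slc7a13, Slc38a3 and Slc38a4, and the source of their transcripts was not tested. Counting every member highest in low library 4 of all 10 libraries gave 18. Summed over the 61 members, low library 4 held 1495 TPM, against 959.1 to 1159 TPM in the high and 984.9 to 1010 TPM in the other low libraries.

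Calls of 2 members rested on low library 4. Slc7a13, which carries aspartate, glutamate and cystine and is known from the kidney tubule, had 0.0316, 0.0437 and 0.461 TPM as lowest, median and highest of the high libraries, against 0.326, 0.0527 and 0.237 TPM in low libraries 1 to 3 and 176 TPM in low library 4. Its log2 change was -8.53 (SE 2.31, adjusted p = 0.0377) with all libraries and -0.69 (SE 0.90, adjusted p = 0.634) without low library 4, and its call was also lost without any of high libraries 2 to 6. Slc6a19, the main neutral amino acid carrier of the kidney and small intestinal brush border, had 0.245, 0.395 and 0.651 TPM as lowest, median and highest of the high libraries, against 0.496, 0.802 and 0.665 TPM in low libraries 1 to 3 and 43.9 TPM in low library 4. Its log2 change was -4.73 (SE 1.31, adjusted p = 0.0407) with all libraries and -0.51 (SE 0.33, adjusted p = 0.316) without low library 4, and its call was also lost without any of the 6 high libraries. Outside low library 4, both were below 1 TPM in every colorectum library.

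Slc6a18, the glycine carrier of the kidney tubule, had 95.8 TPM in low library 4, at most 0.948 TPM in the high and at most 0.148 TPM in the other low libraries, and did not pass the filter. Without low library 4 the sign of the log2 change turned for 5 further members that were at over 3 times the other low libraries. These changes were -4.08 with and 0.21 without it for Slc6a13, -3.36 and 0.28 for Slc38a3, -1.05 and 0.40 for Slc38a4, -0.64 and 0.23 for Slc7a8, and -1.18 and 0.11 for Slc7a9, and none passed the test either way. Slc6a13, Slc38a3 and Slc38a4 are also the leading carriers of the liver, and low library 4 was the highest of all 10 libraries for the summed hepatocyte markers as for the kidney markers. The hepatocyte list was split. With and without low library 4 the log2 change was -2.71 and -0.44 for Alb and -3.33 and -0.13 for Cyp2e1. It hardly moved for Hpd (-0.99 and -0.98) and Tat (0.35 and 0.33). The list median was -1.82 with and -0.19 without the library, and Ttr was called only without it (2.22, adjusted p = 3.5e-04). Slc6a15, a carrier of branched-chain amino acids, had a log2 change of -0.64 without the library and of -2.56 with it (adjusted p = 0.0508).

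Leaving low library 4 out also brought calls. Besides Slc1a1, these were Slc7a6, a light chain of Slc3a2 (-0.59, SE 0.17, adjusted p = 0.0476, but -0.40 and 0.15 without low libraries 3 and 4), and the glutamine carrier Slc38a5 (-2.40, SE 0.69, adjusted p = 0.0451). Slc38a5 had 0.0386 to 0.179 TPM in the high libraries, against 0.26, 0.132, 1.33 and 0.124 TPM in low libraries 1 to 4. Its highest value was that of low library 3, which carried the acinar transcripts, and without low libraries 3 and 4 its change was -0.75 (adjusted p = 0.44). Without both libraries 5 members rose (Slc6a4, Slc36a1, Slc6a8, Slc1a1 and Slc6a12) and 9 fell, where 11.4% of all genes were called (5.04% higher and 6.37% lower).

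**Figure D3:**
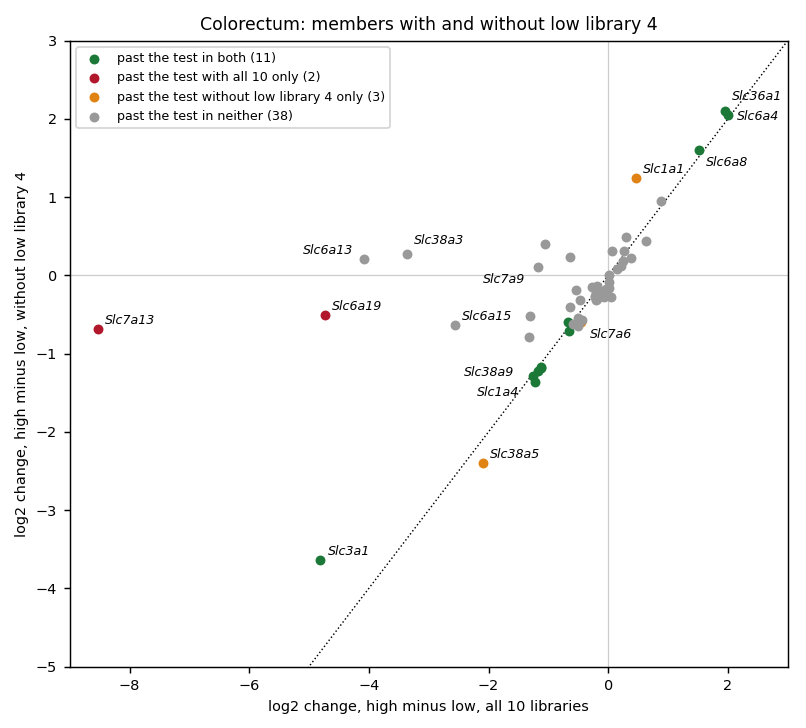
Log2 change of each tested member in the colorectum, high minus low, with all 10 libraries (x axis) and without low library 4 (y axis), coloured by where it passed the test, with equality as a dotted line. Of the members shown, 11 are past the test in both fits, 2 (Slc7a13 and Slc6a19) with all libraries only and 3 without low library 4 only.

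**Figure D4:**
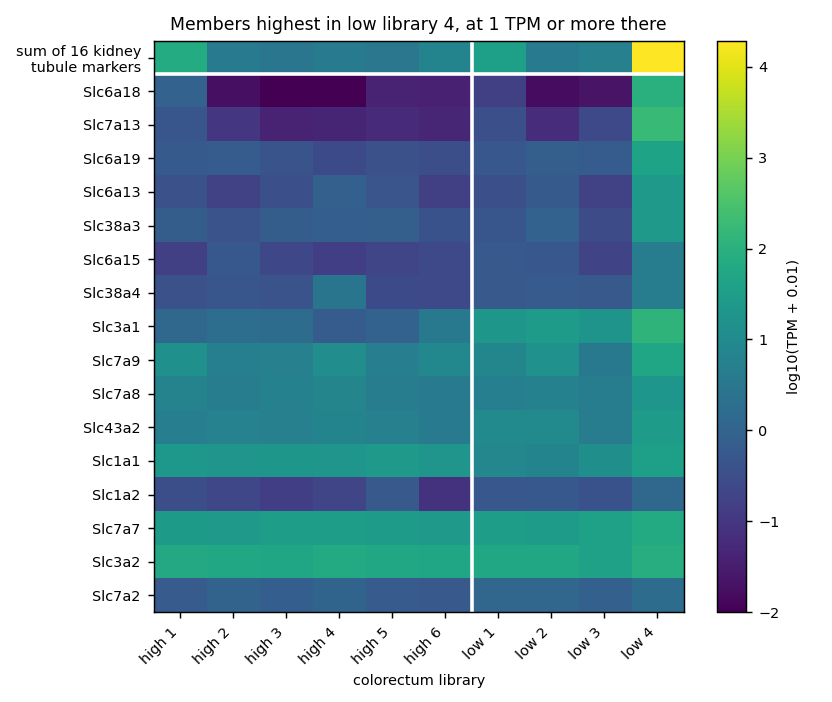
Levels in the 6 high and 4 low colorectum libraries (columns) of the 16 kidney tubule markers, summed (top row), and of the 16 members highest in low library 4 with at least 1 TPM there (rows), coloured by log10(TPM + 0.01). The column of low library 4 holds the highest value of every row, and Slc3a1 is also higher in low libraries 1 to 3 than in the high libraries.

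For 3 of the called carriers, windows of 300 bases around the transcription start (250 before and 50 after it, RefSeq, GRCm38.p6) are shown 5′ to 3′ on the gene's own strand. Slc1a4 is shown since it fell in both tissues, Slc36a1 as a rise and Slc3a1 as the largest fall that did not rest on low library 4. RefSeq windows matched 43 of the 61 members. The motif TGATGNAA, a composite site bound by Atf4, the factor of the amino acid response, was searched on both strands and lay in 3.97% of all 32851 windows and in 5 of 64 windows of members, those of Slc1a4, Slc6a21, Slc7a11 and Slc7a7. The palindrome CACGTG, known as the E-box of helix-loop-helix factors, was added after the Slc36a1 sequence had been seen. It lay in 7.15% of all windows and 9 of 64 windows of members. None of the windows shown held both motifs. Capitals mark the matches, which are TTGCATCA on the opposite strand in Slc1a4 and 2 copies of CACGTG in Slc36a1, and the Slc3a1 window held neither.
Slc1a4 (chr11:20332664-20332963, minus strand): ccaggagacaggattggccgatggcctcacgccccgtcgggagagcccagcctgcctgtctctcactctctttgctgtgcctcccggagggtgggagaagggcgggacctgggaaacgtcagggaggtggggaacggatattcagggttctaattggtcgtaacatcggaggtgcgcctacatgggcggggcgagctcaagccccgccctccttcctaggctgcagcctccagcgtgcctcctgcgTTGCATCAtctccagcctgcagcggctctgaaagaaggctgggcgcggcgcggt
Slc36a1 (chr11:55204090-55204389, plus strand): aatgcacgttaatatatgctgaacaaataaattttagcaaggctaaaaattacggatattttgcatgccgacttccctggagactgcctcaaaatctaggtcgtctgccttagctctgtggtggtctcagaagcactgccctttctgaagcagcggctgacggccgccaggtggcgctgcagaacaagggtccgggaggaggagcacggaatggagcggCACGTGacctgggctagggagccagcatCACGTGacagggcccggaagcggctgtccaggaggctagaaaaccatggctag
Slc3a1 (chr17:85028097-85028396, plus strand): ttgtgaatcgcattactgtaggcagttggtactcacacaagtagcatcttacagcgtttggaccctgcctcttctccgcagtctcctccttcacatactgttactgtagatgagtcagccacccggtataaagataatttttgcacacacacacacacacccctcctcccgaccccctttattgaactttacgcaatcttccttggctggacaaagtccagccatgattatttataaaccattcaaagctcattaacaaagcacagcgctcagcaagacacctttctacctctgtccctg

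Genes that work beside the carriers are counted by list, here and in the next paragraphs on the colorectum. Of all genes tested there, 15.5% were called with all libraries (7.29% higher and 8.21% lower). Without low library 4 it was 12.1% (5.55% higher and 6.55% lower). The lists were not tested as sets. Of 11 tested carriers of amino acids and peptides outside the 7 families, 2 rose and none fell (median log2 change of the list 0.06). Slc15a1, which takes up dipeptides and tripeptides, averaged 32.6 ± 11.5 TPM in high and 2.41 ± 0.662 TPM in low libraries (log2 change 3.83, SE 0.33, adjusted p = 1.2e-04), and Ctns, the lysosomal cystine exporter, averaged 16.9 ± 1.5 TPM in high and 10.4 ± 1.28 TPM in low libraries (log2 change 0.79, SE 0.12, adjusted p = 0.0015). In the fit without low library 4, 3 of 12 rose and none fell (list median 0.11). The call gained was that of Slc6a20a (0.71 with and 1.39 without the library, adjusted p = 0.0105 without it). Slc6a20b went from -5.22 to 0.77, not past the test either way. None of 10 mitochondrial amino acid carriers passed the test (edgeR, list median -0.23, and -0.02 without low library 4). Of 7 tested partner proteins (list median -0.51, and -0.11 without low library 4) 2 fell, namely Cd44 (-1.05, SE 0.23, adjusted p = 0.0137) and the kidney endocytic receptor Lrp2 (-5.53), whose change was -0.26 without low library 4.

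Of 20 genes of the Atf4 amino acid response, 1 rose and 3 fell (list median -0.19). Ddit4, an inhibitor of mTORC1, had a log2 change of 1.10 (SE 0.23, adjusted p = 0.0111), Eif2ak4, the kinase that senses uncharged tRNA, of -0.55 (adjusted p = 0.00389), Chac1 of -1.29 (adjusted p = 0.0119) and Nupr1 of -2.06 (adjusted p = 0.019). Without low library 4, 1 rose and 4 fell (list median -0.20), with Asns called there (-0.71, adjusted p = 0.0472). Of 23 genes of amino acid sensing by mTORC1, 2 rose and 3 fell (list median 0.10), and without low library 4 it was 1 and 2. Castor2, of the arginine sensor family, fell (-1.64 with all libraries and -1.02 without low library 4), as did the Rag GTPase Rragd (-1.96 and -0.99), while the scaffold subunit Lamtor3 rose by 0.46 on the log2 scale. Of 11 peptidases that release amino acids and dipeptides (list median -0.76, and -0.41 without low library 4), 4 fell, with changes of -2.44 for Enpep, -1.68 for Mep1a, -5.44 for Ggt1 and -0.58 for Mep1b. Without low library 4 these were -1.93, -1.18, -2.71 and -0.41, and the last no longer passed the test (adjusted p = 0.124). In that fit 1 other peptidase of the list rose.

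Other marker lists moved with the colorectum groups. Over 6 posterior homeobox genes, a list chosen after their values were seen, the summed level was 249 to 425 TPM in the high and 22.2 to 63.2 TPM in the low libraries, and 5 of 6 rose. In the high libraries all 6 reached 1 TPM, and in the low libraries 3 or 4 did. Over 12 small intestinal enterocyte markers it was 114 to 323 TPM in the high and 353 to 676 TPM in the low libraries. Of the 12, 3 fell (2 without low library 4), and 7 were at 1 TPM or more in every high library and 8 to 11 in the low ones. The list median was -1.33, but 0.13 without low library 4. Fabp2 had the highest mean of the list, 87.6 ± 63.6 TPM in high and 423 ± 130 TPM in low libraries. Fabp6 went the other way, with 57.2 ± 29.9 TPM in high and 24.5 ± 17 TPM in low libraries, not past the test. Of 8 colonocyte markers 4 rose and 3 fell, with sums of 3620 to 11413 TPM in the high and 4044 to 11988 TPM in the low libraries, all 8 at 1 TPM or more throughout. Of 6 immune markers 2 rose, Cd79a (2.33) and Lyz2 (0.68, and not past the test without low library 4, adjusted p = 0.0954), with sums of 435 to 1146 TPM in the high and 351 to 819 TPM in the low libraries. Of 7 tested skeletal muscle markers Ckm (-1.24) and Acta1 (-1.76) fell, with sums of 19.3 to 32.5 TPM in the high and 28.4 to 69.6 TPM in the low libraries. Of 11 tested acinar markers 7 fell, and without low library 4 it was 10 of 12. Without low libraries 3 and 4 together none fell and 1 rose. The part of these lists in the changes of the carriers was not tested.

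In the liver, 2 members fell with high Neu5Gc and none rose. They made up 5.1% of the 39 members that passed the filter, where 6.47% of all 15522 genes tested were called (3.15% higher and 3.32% lower), so the share was near that of all genes. The median log2 change was 0.03 over the 39 members and 0.003 over all genes. The 22 members that did not pass the filter reached at most 0.289 TPM in any liver library. Slc6a12, which carries betaine and GABA, had 34.2, 28.2 and 27.9 TPM in high libraries 1 to 3, against 42.2, 56.9 and 50.6 TPM in low libraries 1 to 3. The groups did not overlap, and the log2 change was -0.52 (SE 0.11, adjusted p = 0.0215). Leaving out low library 3 or high library 2 ended the call (adjusted p = 0.0703 and 0.105). So did the replicate number as a block (adjusted p = 0.0537), with which 1 member was called, where 4.06% of all genes were. The call of Slc6a12 was also lost with all 16 libraries in 1 edgeR fit (SE 0.482, adjusted p = 0.715). Limma on log2(TPM + 1) without a TPM filter lost it as well (adjusted p = 0.054).

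Slc1a4 was called in the liver as well as in the colorectum. It had 1.25, 0.787 and 1.27 TPM in the high liver libraries, against 2.01, 2.55 and 2.41 TPM in the low ones. These did not overlap, and the log2 change was -0.86 (SE 0.20, adjusted p = 0.0364), with a loss of the call in 5 of the 6 fits that left out 1 library (every one except that without high library 3, adjusted p up to 0.111). With the replicate block the adjusted p was 0.045. The call of Slc1a4 was also lost by edgeR without the robust step (adjusted p = 0.051). Limma on log2(TPM + 1) without a TPM filter lost it as well (adjusted p = 0.0563). Its change in the colorectum was not called different from that in the liver (difference -0.36, SE 0.28, adjusted p = 0.435).

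The members that lead the liver did not pass the test. The glutamine carrier Slc38a3 had 709, 595 and 613 TPM in the high libraries, against 630, 749 and 639 TPM in the low ones (log2 change 0.13, SE 0.09). Slc38a4 had 485, 380 and 313 TPM in the high libraries, against 354, 547 and 390 TPM in the low ones (log2 change 0.07, SE 0.15). Both sets overlapped widely. Slc6a13 had 115, 113 and 113 TPM in the high libraries, against 144, 173 and 159 TPM in the low ones, without overlap (log2 change -0.28, SE 0.10, adjusted p = 0.132).

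The arginine carrier Slc7a2 had 78.3, 50.4 and 46.6 TPM in the high libraries, against 31.4, 56.5 and 33.4 TPM in the low ones, with an overlap through low library 2 (log2 change 0.73, SE 0.24, adjusted p = 0.118). The glutamate carrier Slc1a2 had 52.8, 45.6 and 37.8 TPM in the high libraries, against 41.7, 68 and 49.1 TPM in the low ones (log2 change -0.01, SE 0.15). The heavy chain Slc3a1, which fell in the colorectum, had 32.5, 24.6 and 31.5 TPM in the high liver libraries, against 37.9, 47 and 45.4 TPM in the low ones. Its groups did not overlap, and its log2 change of -0.34 (SE 0.13, adjusted p = 0.14) missed the threshold. Slc3a2 averaged 18 ± 1.08 TPM in high and 23.6 ± 1.4 TPM in low libraries (log2 change -0.19, SE 0.09, adjusted p = 0.261), and Slc6a6 averaged 30.8 ± 5.1 TPM in high and 35.6 ± 5.81 TPM in low libraries (log2 change -0.01, SE 0.12), each with n = 3 a group.

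**Figure D5:**
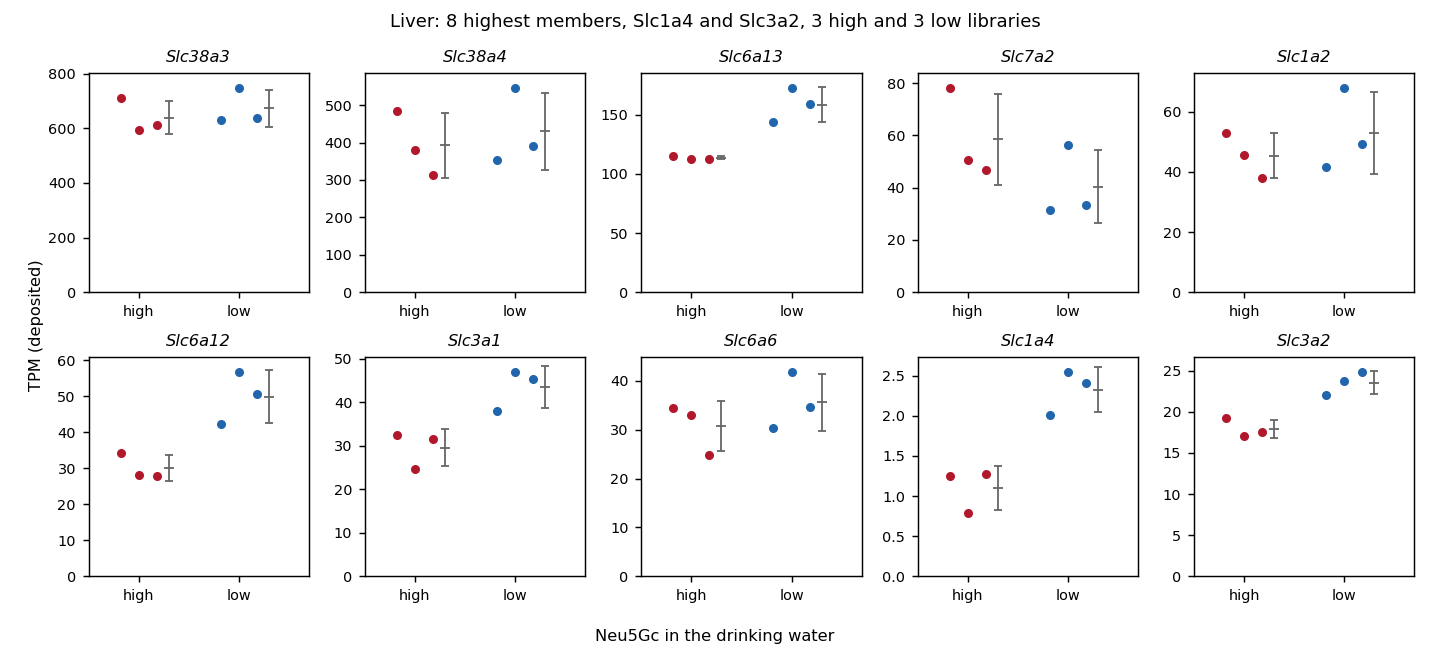
TPM (y axes, linear, each from 0) of the 8 members with the highest mean in the liver, and of Slc1a4 and Slc3a2, in the 3 high (left, red) and 3 low (right, blue) liver libraries, with grey bars for mean and SD. Slc6a12 and Slc1a4, the 2 called members, lie lower in all 3 high libraries than in any low one, while Slc38a3 and Slc38a4 overlap.

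On the TPM scale more genes were lower than higher in the high liver libraries. TPM did not overlap between the groups for 13 of the 39 members, 3 above and 10 below, where 33.5% of all genes tested had groups that did not overlap, 4.17% above and 29.3% below. A limma fit on log2(TPM + 1) called 7 members, all lower, where 15.3% of all genes were called (1.42% higher and 13.9% lower). In that fit the median change of all genes was -0.169, and 9.3% of all calls were higher, against 48.7% in the count fit. The 7 included Slc6a12 (-0.71), Slc1a4 (-0.67), Slc3a1 (-0.54), Slc6a13 (-0.48) and Slc3a2 (-0.38). Thinning the counts to 1 depth left both Slc6a12 (adjusted p = 0.021) and Slc1a4 (adjusted p = 0.0221) called.

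The lists around the carriers were counted in the liver too, where edgeR called 6.47% of all genes (3.15% higher and 3.32% lower). Of 9 tested other carriers, 1 fell (Slc15a3, -0.49, adjusted p = 0.0456). So did 1 of 10 mitochondrial carriers (Slc25a44, a carrier of branched-chain amino acids, -0.41, adjusted p = 0.0306) and 1 of 7 partners (Cd44, -0.60, adjusted p = 0.0419). Of 20 Atf4 response genes, Trib3 rose (1.15, adjusted p = 0.0187). Of 23 genes of mTORC1 sensing, Flcn rose (0.82, adjusted p = 0.00896) and Wdr24 fell (-0.58, adjusted p = 0.036). None of 10 tested peptidases passed the test. Over 8 skeletal muscle markers the summed level was 120 to 153 TPM in the high and 2.57 to 10.9 TPM in the low liver libraries, 7 of 8 rose, 6 to 8 of them reached 1 TPM in the high libraries and 1 to 4 in the low ones. Over 12 pancreatic acinar markers it was 4363 TPM in high library 1 and 10814 TPM in low library 1, against 65.9 to 101 TPM in the other 4. Their part in the liver values was not tested.

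The change differed between the tissues for 8 members (interaction over all 16 libraries), 13.8% of the 58 tested, where 8.04% of 18703 genes were called. It was more positive in the colorectum for 3 members and more negative for 5, against 4.08% and 3.96% of all genes. The difference, colorectum change minus liver change, was 2.24 for Slc6a4 (SE 0.37, adjusted p = 0.00199), 1.62 for Slc36a1 (SE 0.34, adjusted p = 0.00985) and 1.17 for Slc6a8 (SE 0.34, adjusted p = 0.0457). It was -1.62 for Slc38a9 (SE 0.30, adjusted p = 0.00431), -1.25 for Slc36a4 (SE 0.25, adjusted p = 0.00624) and -4.44 for Slc3a1 (SE 0.94, adjusted p = 0.0125), which was -3.28 without low colorectum library 4 (SE 0.58, adjusted p = 0.00418). For Slc7a2 it was -1.35 (SE 0.33, adjusted p = 0.0217), with colorectum means of 0.767 ± 0.21 TPM in high and 1.23 ± 0.353 TPM in low libraries. For Slc6a6 it was -0.66 (SE 0.18, adjusted p = 0.0364). The calls of Slc6a4, Slc36a1, Slc38a9, Slc36a4 and Slc3a1 held whichever library was left out, and those of Slc7a2, Slc6a6 and Slc6a8 were lost in 3, 9 and 11 of the 16 fits that left out 1 library (adjusted p up to 0.115). With the replicate number as a block 4 members were called, where 3.22% of all genes were, and the calls of Slc36a4 (adjusted p = 0.0544), Slc36a1 (0.0576), Slc6a6 (0.108) and Slc6a8 (0.165) were lost. That block gives a number the same effect in both tissues, although the labels pair no samples between them. Same-numbered colorectum libraries also did not deviate together, so what these losses mean cannot be told. In the liver, Slc6a4 averaged 0.124 ± 0.0209 TPM in high and 0.168 ± 0.0948 TPM in low libraries, while Slc36a1 averaged 8.84 ± 1.04 TPM in high and 8.1 ± 1.91 TPM in low libraries, and Slc38a9 averaged 2.88 ± 0.673 TPM in high and 2.54 ± 0.318 TPM in low libraries (n = 3 each).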

How the data were processed

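Per the labels' protocols, Trizol was used to extract RNA and a NEBNext Ultra kit to prepare it for sequencing. Estimated counts and TPM per Ensembl gene ID are as the authors deposited them, with GRCm39 as the build per the submitters' processing notes. For the aligner, the counting tool and strandedness, nothing is given in the sources used here. Symbols came from a GRCm38 annotation (35825 of 36118 IDs, 99.2%), and no ID of a member shared its symbol. Estimated counts were rounded to whole numbers for the tests, and levels are the deposited TPM. Colorectum and liver had separate fits by the quasi-likelihood test of edgeR 4.0.16 (R 4.3.3), two-sided, after filterByExpr and TMM scaling and with the robust option, with Benjamini-Hochberg adjustment over all tested genes and a threshold of 0.05. The tissue difference was the interaction contrast over all 16 libraries. The code was tested on simulated counts. Nothing in the labels says that libraries of a group came from separate animals, so p-values measure the spread between libraries, which may be partly technical.

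The members and gene lists were chosen with earlier results of these data known. Named are the called members, the 8 highest by mean TPM in each tissue, both heavy chains, members that depend on low colorectum library 4 and up to 8 members called for the tissue difference, with up to 4 called genes per list; members named beyond these as examples that missed the test were chosen after their values were seen. Alternatives were DESeq2 1.42.0 size factors and Wald test, limma 3.58.1 (voom, or log2(TPM + 1) and log2(TPM + 0.1), for genes at 1 TPM or more or unfiltered), no robust step, no count filter, all 16 libraries in 1 fit, thinned liver counts, a block for replicate number, and fits that left out libraries. Same-numbered liver libraries deviated together (Pearson correlation across genes 0.56, 0.28 and 0.18), every one over 0.1, so the blocked values stand beside the liver results they change. For number 3 the same number was not the best match of the low library. Library 1 of both liver groups also held pancreatic acinar transcripts, so the numbers need not mark pairs of animals. This check was read after the blocked fits had been run. Slc66a1, Nherf1 and Kics2 of the lists had no match by symbol.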

Additional observations from a re-analysis of the deposited data

Results flagged for a closer look

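A library far from the others of its group was looked for in 64 groups of colorectum values of named members, where chance alone gives about 1 in 20. Some of these members were named because they depend on low library 4, so the count cannot be set against that rate. In all, 18 were found. Of these, 10 were the high values of low library 4, which were 176 TPM for Slc7a13, 125 TPM for Slc3a1, 95.8 TPM for Slc6a18, 43.9 TPM for Slc6a19, 24.6 TPM for Slc6a13, 23.8 TPM for Slc38a3, 20.2 TPM for Slc7a8, 4.55 TPM for Slc6a15, 4.3 TPM for Slc38a4 and 0.667 TPM for Slc7a12. The same library held 19360 TPM of kidney tubule markers. High library 1, which held 72.4 TPM of those markers and so the most after low library 4, stood apart in 5 groups. It was the lowest of the high libraries for Slc1a4 at 6.09 TPM and the highest for Slc36a1 at 82.7 TPM, Slc6a18 at 0.948 TPM, Slc7a13 at 0.461 TPM and Slc7a12 at 0.0264 TPM. The other 3 were Slc38a4 at 2.78 TPM in high library 4, Slc6a15 at 0.529 TPM in high library 2 and Slc38a5 at 1.33 TPM in low library 3.

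The change with high Neu5Gc differed between the colorectum and the liver, by the test of the difference itself, for 8 members. The difference in log2 change, colorectum minus liver, was 2.24 for Slc6a4, 1.62 for Slc36a1, 1.17 for Slc6a8, -0.66 for Slc6a6, -1.25 for Slc36a4, -1.35 for Slc7a2, -1.62 for Slc38a9 and -4.44 for Slc3a1 (-3.28 without low colorectum library 4). Without low colorectum library 4, 8 members were called, where 8.22% of all genes were. They were not the same 8, since the call of Slc6a6 was lost (-0.58, adjusted p = 0.0596) and that of Slc1a1 was gained (2.60, adjusted p = 0.00711).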

How the results depend on the processing

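Low colorectum library 4 and the 3 libraries a group in the liver set the main limits. The colorectum count of 13 called members was 9 to 19 in fits that left out 1 library, where 8.90% to 20.1% of all genes were called. With the replicate number as a block it was 5, where 2.66% of all genes were called. Same-numbered colorectum libraries did not deviate together (correlations -0.13, -0.08, -0.06 and -0.05). The labels give no other link between them, so what the drop to 5 means cannot be told. The liver count of 2 was 1 with the replicate block, 7 by limma on log2(TPM + 1) and on log2(TPM + 0.1), 1 by limma without a TPM filter, 1 with all 16 libraries in 1 fit and 0 to 3 in fits that left out 1 library, where 2.41% to 5.95% of all genes were called. In the fits without low library 3 and without high library 2, no liver member was called, while edgeR called 387 of 16076 and 388 of 15747 genes. An unadjusted p under 0.05 was found for 10 and 11 of 42 members. The share of all genes at that unadjusted threshold was not taken, so these counts cannot be compared with the calls. The tissue count of 8 was 4 with the replicate block, where 3.22% of all genes were called against 8.04% without it, and 5 to 9 in fits that left out 1 library, where 4.31% to 11.7% were.

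Signs turned only for members not called in that tissue with all libraries, among those named. In the colorectum, without low libraries 3 and 4, they became -0.04 for Slc1a5, -0.11 for Slc38a2, 0.42 for Slc38a4, 0.06 for Slc6a14 and 0.16 for Slc7a8. Slc38a2 was -0.0024 with DESeq2 size factors and -0.06 by each limma fit on TPM. Leaving out 1 library gave ranges of -0.08 to 0.06 for Slc38a2, -3.75 to 0.28 for Slc38a3, -2.11 to 0.40 for Slc38a4, -0.08 to 0.31 for Slc3a2, -0.0034 to 0.78 for Slc6a12, -4.48 to 0.21 for Slc6a13, -0.17 to 0.21 for Slc6a14, -0.86 to 0.23 for Slc7a8 and -1.52 to 0.11 for Slc7a9.

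In the liver, limma on log2(TPM + 1), on log2(TPM + 0.1) and unfiltered gave -0.05, -0.08 and -0.05 for Slc36a4, -0.07 each for Slc38a3 and -0.13 each for Slc38a4, and the unfiltered fit gave -0.04 for Slc7a4. Slc1a2 was 0.00063 with the replicate block, and Slc6a6 was 0.0031 without the count filter. Leaving out 1 library gave -0.11 to 0.16 for Slc1a2, -0.05 to 0.23 for Slc38a4, -0.45 to 0.26 for Slc6a4, -0.06 to 0.08 for Slc6a6 and -0.27 to 0.49 for Slc7a4. The cause was not tested.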
